A study of Spodoptera frugiperda with 3 samples.

Results

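Caspases and the proteins that restrain or bypass them were followed in larvae of *Spodoptera frugiperda*, the fall armyworm, after heat and cold. Members were the unigenes, that is the clustered contigs of a de novo assembly, whose best protein hit in the NCBI NR database was named as a caspase, an inhibitor of apoptosis, an apoptosis-inducing factor, an apoptotic protease or an apoptosis inhibitor. At least 20 reads in 1 library were also required. This gave 7 members among the 30327 unigenes of the 3 deposited tables, and all 7 matches of the name passed the minimum of reads. The 6 described here are pro-death by name, namely 4 caspases and 2 unigenes of apoptosis-inducing factor.

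RNA of wild type larvae, labelled as the fourth instar, was taken from the whole body after 16 h at 40 °C (T40), after 16 h at 4 °C (T4), or at 25 °C as the control (T25), for which no time is given. Each temperature was 1 library made from 5 pooled larvae, so the spread between larvae or between pools was not measured and no test between temperatures was possible. A ratio below is the reads of a unigene divided by the effective library size of the authors, 38643842 in T40, 36483914 in T4 and 28015943 in T25. Each ratio stands with a 95% exact interval in brackets that covers counting error only. The tables were limited by the authors to unigenes called different between 2 libraries, so "listed" means that call. The limit on fold in these tables was 2. The paper set an absolute log2 ratio of at least 2 for its differentially expressed genes, which a listed unigene need not reach. A library in which a unigene has no value is one for which no table gave it.

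Apoptosis in insects runs through a chain of proteases. An initiator caspase (Dronc in *Drosophila*) is activated on an adaptor related to Apaf-1 and cleaves effector caspases, which cut the proteins of the dying cell. In *S. frugiperda* cells, caspase-1 is the best known effector caspase. Inhibitor of apoptosis proteins (IAPs) bind caspases through their baculoviral IAP repeats (BIR) and hold them inactive, and IAP-binding proteins release them. Apoptosis-inducing factor is a flavoprotein of the mitochondrial intermembrane space that helps to maintain the respiratory chain and, in mammals, can move to the nucleus of a dying cell.

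The names were checked against the other annotation columns. All 4 caspases carried the caspase domain of Pfam (Peptidase_C14). The initiator caspase had Dronc of *Drosophila melanogaster* as its best UniProt match, and both caspase-2 and caspase-1 had caspase-1 of *S. frugiperda*. Caspase-2 and caspase-1 also shared 1 orthologous group, so reads of the closely related transcripts may have been divided between them by the counting. The 2 unigenes of apoptosis-inducing factor aligned with positions 154 to 493 (pyridine nucleotide-disulphide oxidoreductase domain) and 496 to 615 (C-terminal domain) of the same *Danaus plexippus* protein, and may be pieces of 1 transcript. The unigenes that hold IAP repeats are named in NR as baculoviral IAP repeat-containing proteins, which the rule on names did not reach, and they are described after the members as the anti-death side.

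The caspases and apoptosis-inducing factor lay apart in the heat-treated library. Every caspase listed in T40/T25 or T40/T4 was lower in T40, and both apoptosis-inducing factor unigenes were higher in T40 than in either other library. In T40/T25 the pro-death group had 2 members higher and 3 lower, with a median log2 ratio of -1.44. Of the 7890 unigenes with an NR hit and at least 20 reads, 40.6% were listed as higher and 34.7% as lower in T40/T25, with a median log2 ratio of 1.42 over those listed. Listing required a minimum fold, so the sign of such a median mainly follows the direction with more listed unigenes. Within the pro-death group the 3 listed caspases were all lower. The 2 apoptosis-inducing factor unigenes, which may be pieces of 1 transcript, were both higher. A unigene with a caspase domain that is not a member (c184221_g3_i1) was 3.27-fold higher. The group is small, and its counts were not tested against the shares over all unigenes.

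In T40/T4 the counts were the same, with 2 pro-death members higher and 3 lower, against 37.9% of unigenes with an NR hit listed as higher and 29.0% as lower. The median log2 ratio was -1.36 over the 5 listed pro-death members and 1.44 over all listed unigenes with an NR hit. In T4/T25 only caspase-1-B-like was listed among the 6, and it was higher in T4. The share of unigenes with an NR hit that were listed in T4/T25 was 20.4% higher and 20.8% lower. Any pair of these comparisons shares 1 library, so their counts are not independent of each other.

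**Figure D1:**
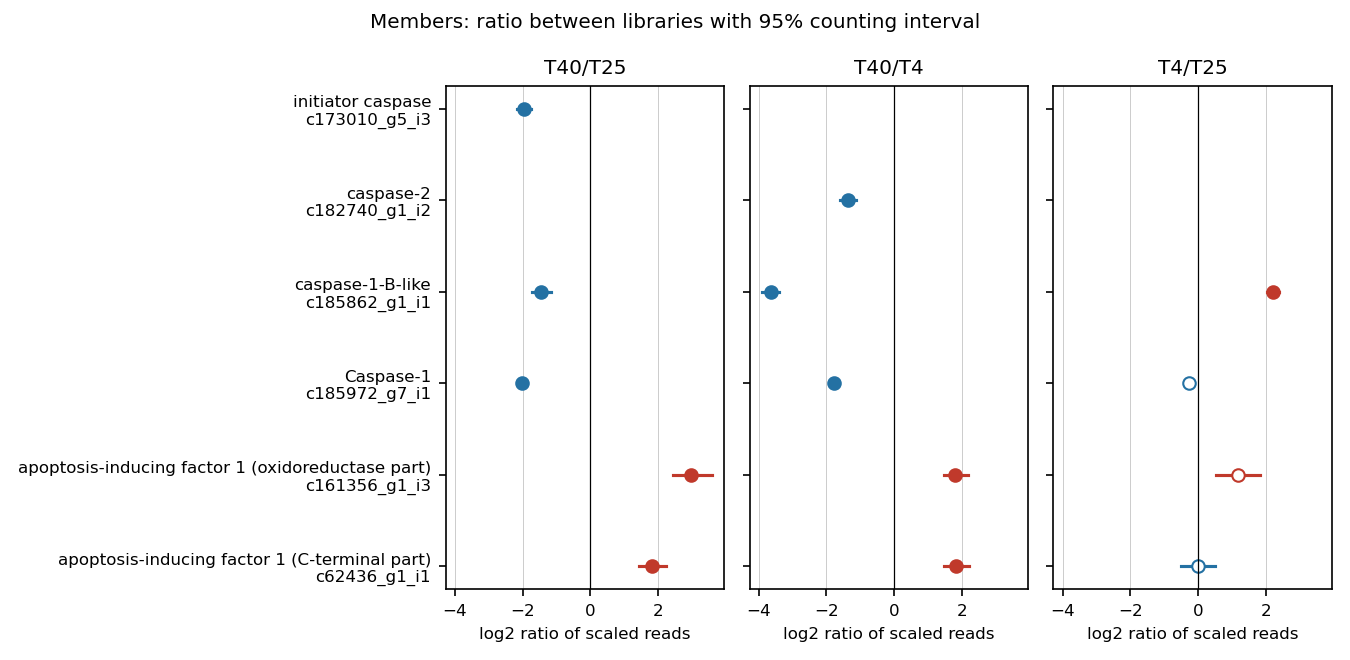
Log2 ratio of scaled reads (x axis) of 6 members in T40/T25, T40/T4 and T4/T25, with 95% counting intervals as lines. Red points are higher and blue points lower in the first library of each pair, filled points are listed by the authors, open points are not, and a missing point means that 1 library was not given; in T40/T25 and T40/T4 the caspases lie left of 0 and both apoptosis-inducing factor unigenes right of it.

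The initiator caspase (c173010_g5_i3), which starts the cascade, had 256 reads in T40 and 719 reads in T25, with no value given in T4. Its level per length was 2.86 FPKM in T40 and 10.15 FPKM in T25 (FPKM, reads scaled to unigene length and library size). The initiator was thus 3.87-fold lower (3.35 to 4.49) in T40 than in T25.

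Caspase-1 (c185972_g7_i1), the effector, had 979 reads in T40, 3144 in T4 and 2883 in T25. It was 4.06-fold lower (3.78 to 4.37) in T40/T25 and 3.40-fold lower (3.17 to 3.66) in T40/T4. In FPKM it stood at 11.02 in T40, 32.37 in T4 and 41.04 in T25, so the heat-treated library was the low one and the other two were close. The T4/T25 ratio was not listed and was 1.19-fold lower (1.13 to 1.26).

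Caspase-2 (c182740_g1_i2), whose name in NR differs from its UniProt match to caspase-1, had 235 reads in T40 and 569 reads in T4, with no value given in T25. It was 2.56-fold lower (2.20 to 3.0) in T40/T4, with 7.26 FPKM in T40 and 16.11 FPKM in T4. This was the smallest of the 3 caspase ratios in T40/T4.

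Caspase-1-B-like (c185862_g1_i1) was the only one of the 6 listed in all 3 comparisons. It had 153 reads in T40, 1814 in T4 and 301 in T25, or 2.63 FPKM in T40, 28.5 FPKM in T4 and 6.54 FPKM in T25. The cold-treated library was the high one, the reverse of the order that caspase-1 showed between T4 and T25. The ratio was 2.71-fold lower (2.23 to 3.32) in T40/T25, 12.6-fold lower (10.6 to 14.9) in T40/T4 and 4.63-fold higher (4.09 to 5.25) in T4/T25. Its best UniProt match was a *Drosophila* effector caspase, caspase-1, and its best KEGG match was named caspase-8-like, so the databases did not place it in 1 class.

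Apoptosis-inducing factor was high in the heat-treated library in both of its unigenes. The oxidoreductase unigene (c161356_g1_i3) had 317 reads in T40, 85 in T4 and 29 in T25, and the C-terminal unigene (c62436_g1_i1) had 300 reads in T40, 79 in T4 and 61 in T25. In T40/T25 the oxidoreductase unigene was 7.92-fold higher (5.41 to 12) and the C-terminal unigene 3.57-fold higher (2.70 to 4.78). These intervals do not overlap, although both unigenes match 1 protein. In T40/T4 the values were close, 3.52-fold higher (2.76 to 4.53) and 3.59-fold higher (2.79 to 4.65).

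The difference between the 2 pieces lay in the control library. The C-terminal unigene stood at 1.04 times (0.884 to 1.22) the FPKM of the oxidoreductase unigene in T40 and 1.02 times (0.742 to 1.40) in T4, against 2.30 times (1.46 to 3.72) in T25, where the oxidoreductase unigene rested on 29 reads. In T4/T25 neither piece was listed, with ratios of 2.25-fold higher (1.46 to 3.56) for the oxidoreductase unigene and 1.01-fold lower (0.708 to 1.42) for the C-terminal unigene. The pieces therefore gave different answers on T4 against T25 and the same direction on T40.

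**Figure D2:**
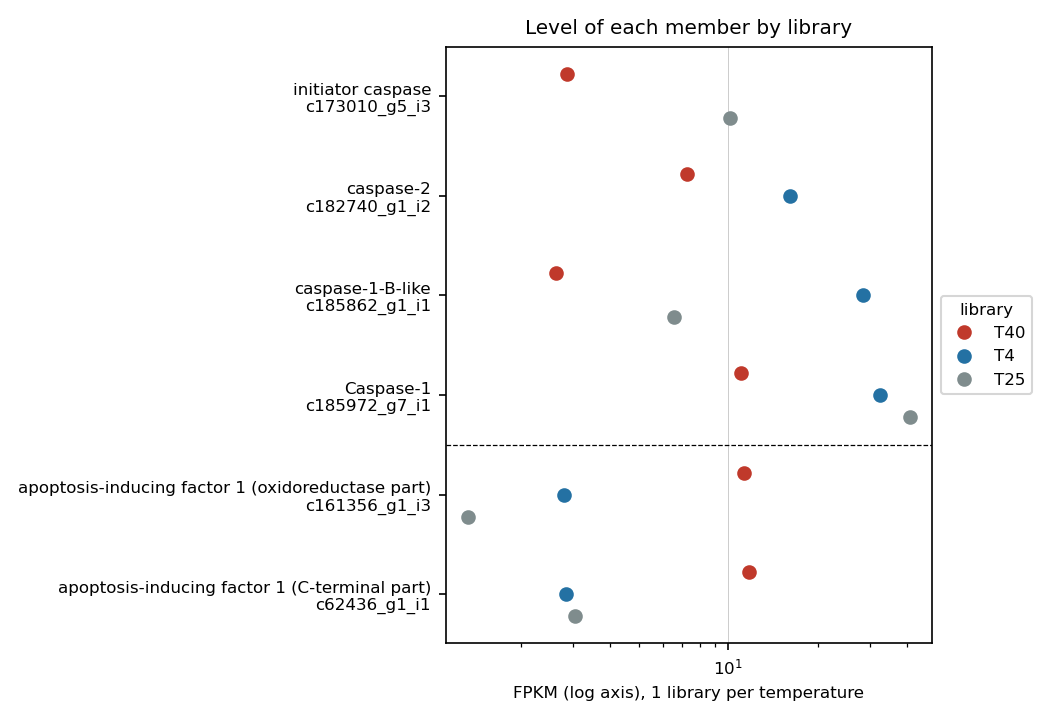
FPKM of each member in each library (x axis, log scale), with 1 point per library in red for T40, blue for T4 and grey for T25. The dashed line parts the 4 caspases from the apoptosis-inducing factor unigenes; the red points of the caspases are the lowest of their rows, while those below the line are the highest, at 11.3 and 11.74 FPKM.

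The order of the members by FPKM was therefore different in the libraries, although each order holds only the members given in that library. In T40 the C-terminal apoptosis-inducing factor unigene stood first. Its ratio to the oxidoreductase unigene was 1.04 (0.884 to 1.22) and that of the oxidoreductase unigene to caspase-1 was 1.03 (0.901 to 1.17), so these neighbours did not differ beyond counting error. Caspase-2, the initiator caspase and caspase-1-B-like followed, the last 2 again within counting error of each other at 1.09 times (0.887 to 1.34).

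In T4, where the initiator caspase was not given, caspase-1 stood first, 1.14 times (1.07 to 1.2) above caspase-1-B-like, and caspase-2 came after them. The lowest places were held by the 2 apoptosis-inducing factor unigenes at 2.84 and 2.78 FPKM, which did not differ beyond counting error, and caspase-2 stood 5.67 times (4.48 to 7.27) above them. In T25, where caspase-2 was not given and its place is not known, caspase-1 stood 4.04 times (3.72 to 4.39) above the initiator caspase. Caspase-1-B-like came after these. The apoptosis-inducing factor unigenes were again the lowest of those given, at 3.04 and 1.32 FPKM.

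Levels relative to caspase-1 within 1 library do not depend on the scaling between libraries. The initiator caspase stood at 0.260 times (0.225 to 0.298) the FPKM of caspase-1 in T40 and 0.247 times (0.228 to 0.268) in T25, with intervals that overlap. Caspase-2 stood at 0.659 times (0.569 to 0.760) caspase-1 in T40 and 0.498 times (0.454 to 0.544) in T4. Caspase-1-B-like was at 0.239 times (0.200 to 0.283) in T40 and 0.880 times (0.831 to 0.933) in T4, against 0.159 times (0.141 to 0.180) in T25, so T4 was the library in which these caspases stood closest.

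**Figure D3:**
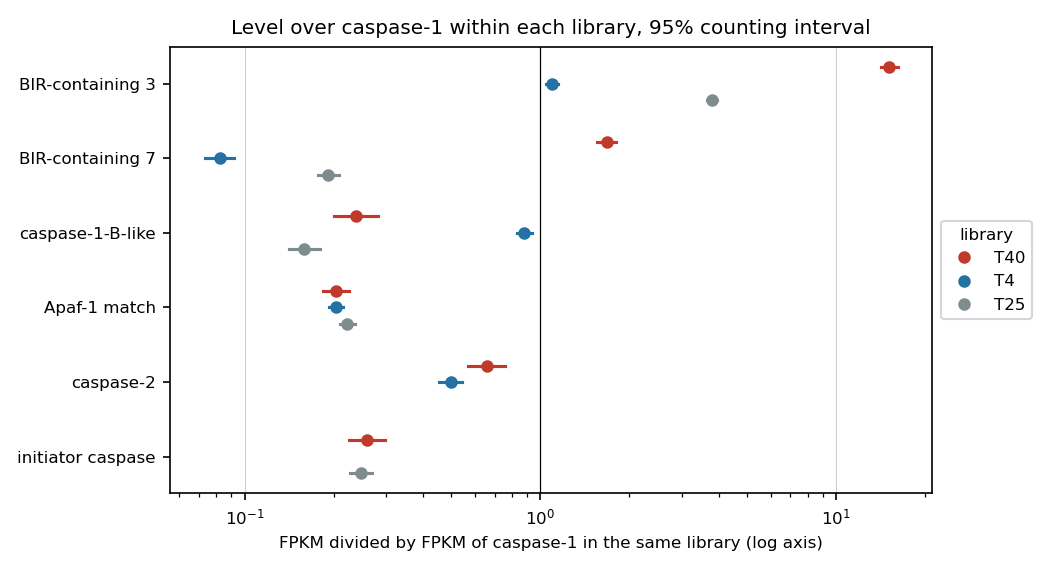
FPKM of 6 death-pathway unigenes divided by the FPKM of caspase-1 in the same library (x axis, log scale), with 95% counting intervals as lines and T40 in red, T4 in blue and T25 in grey. The Apaf-1 match and the initiator caspase keep nearly 1 ratio in each library given, while both BIR-containing (baculoviral IAP repeat) unigenes are highest in T40.

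Next to the members stood 12 unigenes that other names or annotation columns tie to the same pathway. They were chosen after their values had been seen, so their counts are a description only. The nearest to the minimum of reads was a contig with 19 reads that matched a caspase-1 mRNA and had no NR hit.

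The adaptor comes first. An uncharacterized unigene (c189416_g1_i1) with the nucleotide-binding NB-ARC domain had Apaf-1 of zebrafish as its UniProt match, and had 624 reads in T40, 2010 in T4 and 2022 in T25. It was 4.47-fold lower (4.08 to 4.90) in T40/T25 and 3.41-fold lower (3.12 to 3.74) in T40/T4, close to the ratios of caspase-1 in both. Its T4/T25 ratio, 1.31-fold lower (1.23 to 1.39), was not listed. Over caspase-1 it kept 0.203 times (0.184 to 0.225) in T40 and 0.203 times (0.192 to 0.215) in T4, against 0.223 times (0.210 to 0.236) in T25.

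The IAP repeat proteins were set apart by the cold-treated library. Baculoviral IAP repeat-containing protein 3 (c171449_g1_i3) was the most abundant unigene among the members and their neighbours in each library, with 166.4 FPKM in T40, 35.48 FPKM in T4 and 155.64 FPKM in T25. It was 4.05-fold higher (3.92 to 4.18) in T40/T4 and 4.13-fold lower (4.00 to 4.27) in T4/T25. In T40/T25 it was not listed, at 1.02-fold lower (1.00 to 1.04), and this sign turned under another scaling, with a log2 ratio of 0.13 under TMM (trimmed mean of M values).

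Baculoviral IAP repeat-containing protein 7 (c186775_g3_i7), which also holds a BIR domain, had 2111 reads in T40, 334 in T4 and 714 in T25. It was 5.97-fold higher (5.31 to 6.72) in T40/T4 and 2.78-fold lower (2.44 to 3.18) in T4/T25. The T40/T25 ratio of 2.14-fold higher (1.97 to 2.34) was not listed. Set against caspase-1, it stood at 1.67 times (1.55 to 1.81) in T40 and 0.0825 times (0.0735 to 0.0924) in T4, against 0.192 times (0.177 to 0.208) in T25. Baculoviral IAP repeat-containing protein 3 stood at 15.1 times (14.2 to 16.1) caspase-1 in T40 and 1.1 times (1.05 to 1.15) in T4, against 3.79 times (3.64 to 3.95) in T25. For both IAPs the level over caspase-1 was thus highest in T40, lowest in T4 and between them in T25. From T25 to T40 the 2 IAPs were not alike in their own levels. Protein 3 was itself 1.02-fold lower in T40/T25, where caspase-1 was 4.06-fold lower.

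Baculoviral IAP repeat-containing protein 6, a very large ubiquitin-conjugating IAP in mammals, was represented by 3 unigenes with the same NR hit, which may be pieces of 1 transcript. In T40/T25 they were 2.42-fold higher (2.06 to 2.84, c174339_g1_i4), 3.01-fold higher (2.37 to 3.85, c152321_g1_i1) and 3.36-fold higher (2.52 to 4.55, c185125_g5_i1). The last of them had a T4 value too, with 269 reads in T40, 103 in T4 and 58 in T25, and was 2.47-fold higher (1.96 to 3.13) in T40/T4. A viral IAP-associated factor homolog (c171491_g1_i1), of the phosducin family, had 1120 reads in T40 and 330 reads in T25 and was 2.46-fold higher (2.17 to 2.79).

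IAP-binding motif 1 (c169558_g2_i5), named for the motif by which IAP antagonists release caspases, was low throughout, with 11 reads in T40, 41 in T4 and 62 in T25. It was 7.77-fold lower (4.06 to 16.4) in T40/T25 and 3.95-fold lower (1.99 to 8.52) in T40/T4. A Bcl-2 domain unigene (c180758_g1_i1), with the vertebrate killer protein Bok as its match, had 125 reads in T40, 107 in T4 and 303 in T25. It was 3.34-fold lower (2.71 to 4.15) in T40/T25 and 3.69-fold lower (2.95 to 4.64) in T4/T25, so that it was low at both stress temperatures.

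One unigene with a caspase domain did not follow the 4 named caspases. The uncharacterized c184221_g3_i1 had 185 reads in T40 and 41 reads in T25 and was 3.27-fold higher (2.32 to 4.71). Short contigs that matched a caspase-1 mRNA were lower. One (c185972_g6_i1) had 5 reads in T40, 24 in T4 and 26 in T25, a T40/T25 ratio 7.17-fold lower (2.71 to 23.9), and the other (c173472_g4_i2) had 2 reads in T40 and 19 reads in T25, a ratio 13.1-fold lower (3.16 to 116).

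**Figure D4:**
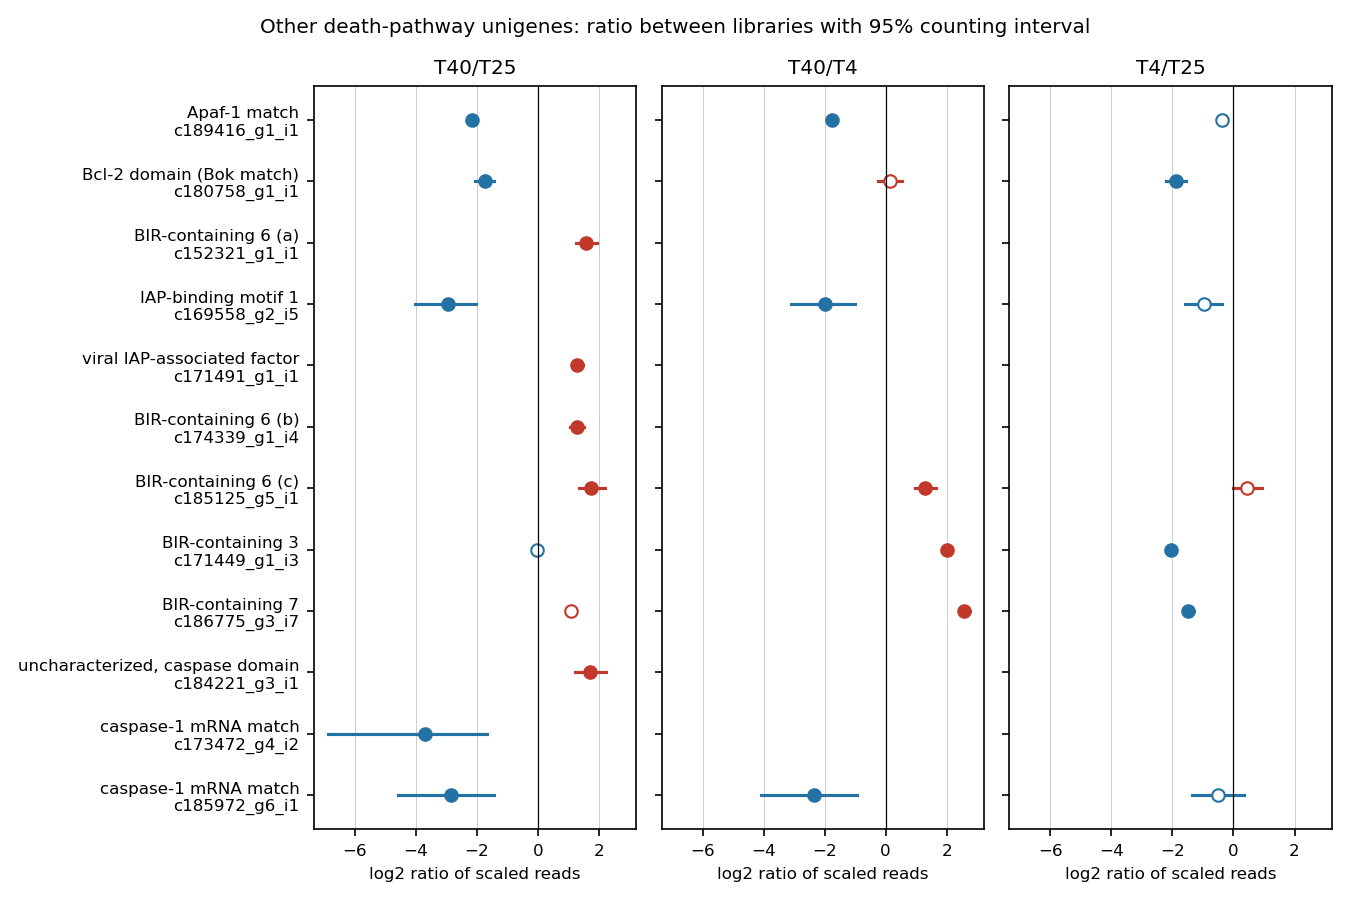
Log2 ratio of scaled reads (x axis) of the 12 neighbouring unigenes in T40/T25, T40/T4 and T4/T25, with 95% counting intervals as lines, colours and fills as for the members. In T4/T25 the baculoviral IAP repeat-containing proteins 3 and 7 lie near -2.05 and -1.48, and in T40/T4 near 2.02 and 2.58.

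Other genes of the pathway were counted from 8 lists of annotation names, which together held 42 unigenes without the members. In T40/T25, 18 were listed as higher and 16 as lower, with a median log2 ratio of 1.3 against 1.42 over all listed unigenes with an NR hit. In T40/T4 the counts were 15 higher and 11 lower (median 1.42, against 1.44), and in T4/T25 they were 9 higher and 10 lower (median -1.25, against -1.25). These counts are near the shares listed over all unigenes with an NR hit, 40.6% higher and 34.7% lower in T40/T25, 37.9% and 29.0% in T40/T4, and 20.4% and 20.8% in T4/T25. The signs of the medians mainly follow these counts and are not a separate result. The lists went different ways, and the tables leave out pathway genes that were called in no comparison.

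All 4 unigenes on the list of caspase activators and adaptors were lower in T40/T25 (median log2 ratio -2.11), but none is a core part of the caspase cascade. The death-associated LIM-only protein (c182861_g4_i3), an adhesion adaptor by its matches, had 6690 reads in T40, 4530 in T4 and 14108 in T25 and was 2.91-fold lower (2.83 to 3.0) in T40/T25 and 4.06-fold lower (3.92 to 4.19) in T4/T25. The other 3 were pieces named MAP kinase-activating death domain protein, a Rab exchange factor, of which c187649_g5_i2 was 6.29-fold lower (4.50 to 8.96) in T40/T25 and 7.66-fold lower (5.56 to 10.8) in T40/T4.

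On the list of IAP antagonists and mitochondrial release factors, 2 unigenes were higher and 1 was lower in T40/T25 (median log2 ratio 1.86). Endonuclease G (c182805_g1_i2), a mitochondrial nuclease that shares its compartment with apoptosis-inducing factor, had 222 reads in T40, 98 in T4 and 15 in T25. It was 10.7-fold higher (6.37 to 19.5) in T40/T25 and 5.02-fold higher (2.90 to 9.30) in T4/T25. Cytochrome c-type heme lyase-like (c174993_g1_i1), which attaches heme to cytochrome c, was 3.64-fold higher (3.17 to 4.19) in T40/T25. The unigene named serine protease HTRA2 (c183862_g1_i3) was 6.30-fold lower (5.80 to 6.87), but its domain and UniProt match were those of N-acetyl-D-glucosamine kinase.

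The Bcl-2 and Bax inhibitor list had 1 unigene higher and 1 lower in T40/T25. The BCL2/adenovirus E1B 19 kDa protein-interacting protein 3 unigene (c177700_g2_i3), a mitochondrial protein tied to mitophagy in mammals, had 123 reads in T40, 2655 in T4 and 2529 in T25. It was 28.4-fold lower (23.7 to 34.3) in T40/T25 and 22.9-fold lower (19.1 to 27.6) in T40/T4. Lifeguard 1 (c186258_g5_i3), of the Bax inhibitor family, was 3.05-fold higher (2.93 to 3.17) in T40/T25, and lifeguard 4-like (c172866_g1_i1) was 3.90-fold lower (3.64 to 4.18) in T4/T25.

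All 4 unigenes of the list of stress kinases were lower in T40/T25 (median log2 ratio -1.85), and the 3 listed in T4/T25 were lower too (median -1.93), while 0 of the 4 were listed in T40/T4. The share listed as lower over all unigenes with an NR hit was 34.7% in T40/T25 and 20.8% in T4/T25, and 2 of the 4 share a protein name. Among them, MAP kinase kinase kinase 15 (c189199_g2_i1), of the ASK family that signals to JNK and p38, had 900 reads in T40, 1500 in T4 and 3392 in T25, 5.20-fold lower (4.83 to 5.60) in T40/T25. A MAP kinase kinase kinase 7 unigene (c183038_g3_i2) was 3.71-fold lower (2.90 to 4.8) in T40/T25 and 9.08-fold lower (6.32 to 13.4) in T4/T25. A second piece with the same name (c183038_g1_i3) was 3.81-fold lower (2.99 to 4.88) in T4/T25.

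The list of TNF, Imd and death receptor signalling was mixed, with 6 higher and 3 lower in T40/T25 (median log2 ratio 2.13). Eiger (c186347_g1_i1), the *Drosophila* TNF ligand, had 182 reads in T40, 593 in T4 and 650 in T25 and was 4.93-fold lower (4.17 to 5.84) in T40/T25. Its receptor wengen (c160962_g1_i1) was 3.47-fold lower (3.19 to 3.78) in T4/T25 and was listed as lower in T40/T25 too (log2 ratio -2.20). TNF receptor-associated factor 3-like (c184479_g4_i3) was 6.09-fold higher (5.17 to 7.22) in T40/T25. The extremes of the list were LITAF-type zinc finger proteins, of which c215008_g1_i1 was 9.15-fold higher (6.82 to 12.6) and c179906_g3_i1 22.9-fold lower (16.9 to 32.0). TNF receptor-associated factor 4 (c187985_g1_i3) was 5.64-fold lower (4.63 to 6.91) in T40/T4 and 3.58-fold higher (2.97 to 4.34) in T4/T25.

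The name search for DNA fragmentation and caspase substrates gave 4 listed unigenes in T40/T25, all higher (median log2 ratio 2.33), but only 2 of them, both poly [ADP-ribose] polymerase, bear out the list's name. The search for lamins had also taken in laminin subunit beta-1 (c214788_g1_i1), an extracellular matrix protein, with a log2 ratio of 1.35. Poly [ADP-ribose] polymerase (c185700_g1_i1), a DNA repair enzyme cut by effector caspases, had 2051 reads in T40, 818 in T4 and 556 in T25 and was 2.67-fold higher (2.43 to 2.94). The largest ratio of the list, 41.2-fold higher (38.3 to 44.3), belonged to a unigene named apoptotic chromatin condensation inducer (c179894_g1_i1), whose domain and UniProt match were those of dipeptidyl peptidase 4. All 3 listed programmed cell death proteins, of 4 on the list, were higher as well (median log2 ratio 1.86). Over all unigenes with an NR hit, 40.6% were listed as higher. The largest ratio was that of programmed cell death protein 2 (c180204_g5_i3), 16.3-fold higher (9.73 to 29.4), on 337 reads in T40 and 15 in T25. This list was drawn by name only, and a role of its unigenes in cell death was not tested. Programmed cell death 11-like (c187696_g1_i2), at 3.62-fold higher (1.88 to 7.68), matched the ribosomal RNA processing protein RRP5. A further poly [ADP-ribose] polymerase-like unigene (c183680_g3_i3) had 14 reads in T40, 73 in T4 and 6 in T25. It was 5.52-fold lower (3.09 to 10.6) in T40/T4 and 9.34-fold higher (4.09 to 26.3) in T4/T25.

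Engulfment genes were 2 higher and 3 lower in T40/T25 (median log2 ratio -1.57). Croquemort-like (c184220_g6_i1), of the CD36 scavenger receptors, had 11483 reads in T40, 1912 in T4 and 1034 in T25 and was 8.05-fold higher (7.55 to 8.59). All 3 listed unigenes of the adaptor ced-6 were lower, 5.95-fold (5.17 to 6.87, c184822_g1_i2) and 8.83-fold (6.43 to 12.4, c180257_g1_i1), with a log2 ratio of -1.57 for the ced-6-like c179289_g1_i6. Phagocyte signaling-impaired protein (c185639_g1_i1), 7.26-fold higher (6.05 to 8.76), carried the domain of an N-terminal acetyltransferase subunit.

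**Figure D5:**
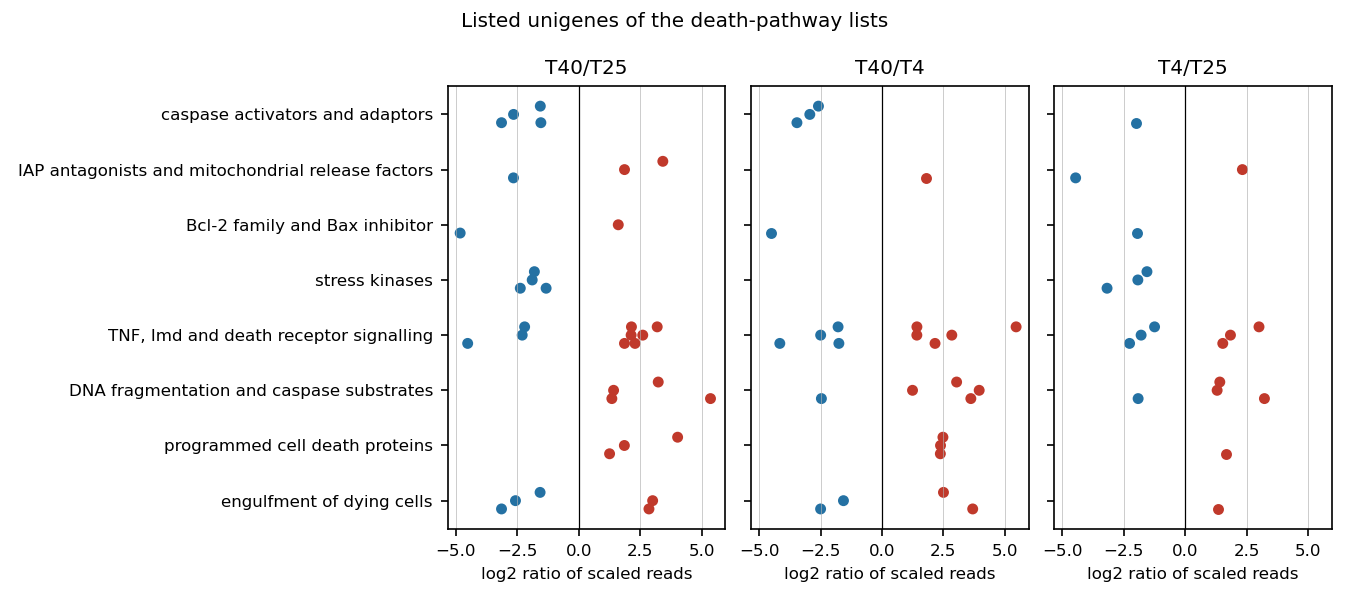
Log2 ratio of scaled reads (x axis) of each listed unigene on the 8 pathway lists in T40/T25, T40/T4 and T4/T25, with 1 point per unigene, red for higher and blue for lower in the first library of each pair. In T40/T25 all 4 points of the stress kinase list and all 4 of the caspase activator list lie left of 0, and in both lists some share a protein name. The 4 of the DNA fragmentation list lie right of 0 and include a laminin and a dipeptidyl peptidase 4 match.

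Whole larvae hold many tissues, and in such libraries fewer cells of a type and less RNA per cell cannot be told apart. Markers were picked by name. Hemocyte names were hemocytin, hemolectin, prophenoloxidase, phenoloxidase subunit, integrin alpha-PS, croquemort, eater and nimrod. Midgut names were trypsin, chymotrypsin, aminopeptidase N and peritrophin, and muscle names were myosin heavy chain, troponin, titin, paramyosin and tropomyosin. Summed over the marker unigenes given in all 3 libraries, hemocyte markers (6 of 7) stood at 175 FPKM in T40 and 179 in T4, against 188 in T25. Midgut markers (43 of 45) stood at 11793 FPKM in T40 and 3716 in T4, against 4240 in T25, and muscle markers (24 of 29) at 1655 FPKM in T40 and 8533 in T4, against 10940 in T25. Fat body names were arylphorin, hexamerin, basic juvenile hormone-suppressible, storage protein and apolipophorin, and silk gland names were fibroin, sericin and fibrohexamerin. Fat body markers (8 of 8) stood at 12920 FPKM in T40 and 107125 in T4, against 62130 in T25. Silk gland markers (3 of 3) stood at 1.19 FPKM in T40 and 244 in T4, against 104 in T25. No marker in the tables has a count of 0 in a library given, which the authors' own filter on counts of 0 sets in part. In T40/T25, 1 hemocyte marker was higher and 5 lower (median log2 ratio -2.04). The near-equal hemocyte sums therefore hold markers that went different ways. The higher one was croquemort-like (c184220_g6_i1), given above among the engulfment genes. In T40/T4 the hemocyte markers were also 1 higher and 5 lower. In T40/T25, 23 midgut markers were higher and 12 lower, and 8 muscle markers were higher and 16 lower. For fat body 2 were higher and 6 lower, and for silk gland 0 were higher and 3 lower. Over all unigenes with an NR hit, 40.6% were listed as higher and 34.7% as lower in T40/T25. In T40/T4 these shares were 37.9% and 29.0%. The marker counts were not tested against them. The 10 most abundant unigenes held 13.4% of the table reads in T40 and 43.6% in T4, against 33.5% in T25. The part of tissue make-up and of these abundant unigenes in the ratios of the caspases and apoptosis-inducing factor was not tested.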

How the data were processed

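RNA of whole larvae was sequenced in 1 library of 5 pooled larvae for each of T40, T4 and T25. The authors trimmed reads with Trimmomatic 0.38 after FastQC 0.11.7 checks, assembled the merged reads de novo and aligned each library with Bowtie 1.1.2, and the deposited expected counts per unigene were estimated by the authors with RSEM. No genome was used. The deposited FPKM values were divided by unigene length and reads by the authors. The deposited log2 values are the authors' counts scaled by an effective library size, plus a pseudocount of 1, and gave that size here. The deposited fold changes, P-values and means of the authors were not used. Each deposited table holds only unigenes past the authors' limits.

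The 3 tables were joined by unigene. Ratios are counts over effective sizes, with a pseudocount of 0 and a 95% Clopper-Pearson interval (Python 3.11.15, scipy 1.17.1). The interval was run on data simulated with counting error only, as the interval itself assumes. That run checks the code and says nothing of other spread in these data. No p-value was computed. Tables held 21560373 reads of T40, 24403584 of T4 and 16678975 of T25. Intervals cover counting error only.

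Members, gene lists and alternatives were chosen with earlier results of these data known. Named were all members but 1. Unigenes of the 8 pathway lists were named from up to 2 with the highest and 2 with the lowest ratio per list and comparison. Only those with 50 reads or more in the higher library were ranked, with a pseudocount of 1. Laminin subunit beta-1 (c214788_g1_i1) and the ced-6-like c179289_g1_i6 were named outside this rule. The 12 neighbouring unigenes were chosen after their values were seen. Alternatives were TMM scaling (edgeR 4.0.16), trimmed reads, FPKM ratios, a pseudocount of 1, a minimum of 50 reads or none, a fold of at least 4, 1 unigene per NR hit, and a search of all annotation columns. That member and some pathway genes are not reported here, and 1 list was shortened for it. No member had an accession in the RefSeq gene table, so no sequence is shown.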

Additional observations from a re-analysis of the deposited data

Results flagged for a closer look

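For 4 unigenes the ratio to the control was at least 2-fold in opposite directions in heat and cold. The difference between heat and cold was not tested, since each temperature had 1 library. Caspase-1-B-like (c185862_g1_i1) had a log2 ratio of -1.44 in T40/T25 and 2.21 in T4/T25. Baculoviral IAP repeat-containing protein 7 (c186775_g3_i7) had 1.1 in T40/T25, which the authors did not list, and -1.48 in T4/T25. A poly [ADP-ribose] polymerase unigene (c163938_g1_i3), with 87 reads in T40, 10 in T4 and 29 in T25, had 1.12 in T40/T25, also not listed, and -1.92 in T4/T25. A LITAF-type zinc finger unigene (c215008_g1_i1), with 606 reads in T40, 13 in T4 and 48 in T25, had 3.19 in T40/T25 and -2.27 in T4/T25. The control library is shared by both ratios of each unigene.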

How the results depend on the processing

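No paired analysis was possible because each temperature had 1 library, and no library could be left out. The counts of pro-death members were equal under FPKM ratios, trimmed reads as the size, TMM and a pseudocount of 1, which moved the ratios by too little to turn a listed one, and under a minimum of 50 reads, no minimum and 1 unigene per NR hit, which left the 6 members as they were. These alternatives could not have moved the counts and say nothing of their stability. A fold of at least 4 is the paper's own limit, a log2 ratio of 2. With it, the pro-death members were 1 higher and 1 lower in T40/T25, and 0 higher and 1 lower in T40/T4. With a search of all annotation columns, 5 pro-death unigenes were lower in T40/T25 and 5 in T40/T4, 2 anti-death unigenes were higher in T40/T4 and 2 were lower in T4/T25. With the neighbouring unigenes added, an alternative chosen after seeing the data, 7 pro-death unigenes were lower and 3 higher in T40/T25, 6 were lower and 2 higher in T40/T4 and 1 was lower and 1 higher in T4/T25, while 3 anti-death unigenes were higher in T40/T25, 3 were higher in T40/T4 and 2 were lower in T4/T25. In that last alternative the 3 anti-death unigenes of T40/T25 were those of baculoviral IAP repeat-containing protein 6, which may be pieces of 1 transcript. Its lower pro-death unigenes in T40/T25 and T40/T4 include a short contig that matched a caspase-1 mRNA (c185972_g6_i1). So do those from the search of all annotation columns. By its label, this contig comes from the same assembly cluster as the member caspase-1 (c185972_g7_i1). These counts may therefore hold 1 gene more than once. No listed ratio of a named unigene changed sign under another scaling. TMM moved all log2 ratios by 0.16 in T40/T25, 0.08 in T40/T4 and -0.18 in T4/T25, and trimmed reads moved those of T40/T4 by 0.28. TMM was computed on the deposited unigenes alone, each called different in at least 1 comparison, although the method assumes that most unigenes are unchanged. Among the 6 members depth was lowest for the apoptosis-inducing factor unigenes, with 29 and 61 reads in T25, and among the neighbours for the short caspase-1 mRNA matches, with 2 and 5 reads in T40.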
